A study of Mus musculus with 6 samples.

Results

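*Irx1*, *Irx2*, *Hhex*, *Pou3f4*, and *Neurog3* encode transcription factors associated with the α and δ cells of the pancreatic islet, and their transcripts were followed in single-cell RNA-Seq of mouse islets. The members were chosen by symbol, and each symbol matched 1 identifier, giving 5 of the 32285 genes in the count matrices. The study compared islets of mice lacking 14-3-3ζ in β cells (β14-3-3ζ–KO, written KO here) with islets of WT mice, both with the strain label C57/BL6 and an age of 12–14 weeks. In KO mice, exon 4 of *Ywhaz*, the gene for the scaffold protein 14-3-3ζ, lay between loxP sites and was deleted by Cre expressed from the *Ins1* locus (Ins1-CreThor), so that the deletion was directed to insulin-expressing cells. The WT mice were littermates that, by the study's methods, carried the Cre allele too. There were 3 libraries of each genotype (replicates 1 to 3), made with droplet-based 3′ chemistry in which each captured transcript is counted by a unique molecular identifier (UMI). The libraries came from 3 WT and 3 KO mice.

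The islet is a mixture of endocrine cells, each named for its main hormone: α cells make glucagon, δ cells somatostatin, Ppy cells pancreatic polypeptide, and β cells insulin. Transcription factors set up these identities in the embryo and many of them go on being expressed in the mature cell, so a short list of them is often used to tell the cell types apart. *Irx1* and *Irx2* encode Iroquois homeodomain proteins found in α cells. *Pou3f4* (also called Brn4) encodes a POU-homeodomain protein that binds the glucagon gene promoter. *Hhex* encodes a homeodomain protein required for δ cell differentiation. *Neurog3* encodes the basic helix-loop-helix protein that commits embryonic pancreatic progenitors to the endocrine lineage, and its expression falls strongly once endocrine cells have formed.

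The genes lie on 4 chromosomes in mm10 (GRCm38; GENCODE vM21 models). *Irx1* (ENSMUSG00000060969, chr13:71957921-71963723, minus strand) and *Irx2* (ENSMUSG00000001504, chr13:72628820-72634198, plus strand) stand 665.1 kb apart. *Hhex* (ENSMUSG00000024986) is at chr19:37434810-37440731 on the plus strand, and *Pou3f4* (ENSMUSG00000056854), a gene of 1 exon, is at chrX:110814280-110817207 on the plus strand. *Neurog3* (ENSMUSG00000044312, chr10:62133090-62134763, plus strand) lies wholly inside *Fam241b*, a protein-coding gene on the opposite strand, and 3 exons of *Fam241b* overlap it. The strand setting of the counting is not given in the sources used here, so the values of *Neurog3* carry the uncertainty of overlapping transcripts. Pooled over the 6 libraries, *Fam241b* stood at 56.7 UMIs per 1000000 UMIs of the class (CPM) in δ cells, 23.2 in α cells, 19.6 in Ppy cells, and 17.1 in β cells. Its part in the *Neurog3* values was not tested.

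The promoters of *Irx2* and *Neurog3* are shown because each is the upstream sequence of a gene whose transcript separated 1 endocrine class from the others, and because their RefSeq starts coincide with the gene starts above. Each line gives the 250 bases before the start, 5′ to 3′ on the plus strand, from RefSeq (GRCm38.p6), at chr13:72628570-72628819 for *Irx2* and chr10:62132840-62133089 for *Neurog3*. Capitals mark an E-box (CANNTG) and a CCAAT box (CCAAT, or ATTGG when it reads on the other strand), the only matches to those letters on either strand, and they do not overlap.
Irx2: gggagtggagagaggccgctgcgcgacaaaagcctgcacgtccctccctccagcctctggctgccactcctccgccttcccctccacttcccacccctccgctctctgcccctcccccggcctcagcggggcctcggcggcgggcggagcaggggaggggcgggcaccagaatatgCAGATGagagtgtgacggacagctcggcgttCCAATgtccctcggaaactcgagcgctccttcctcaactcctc
Neurog3: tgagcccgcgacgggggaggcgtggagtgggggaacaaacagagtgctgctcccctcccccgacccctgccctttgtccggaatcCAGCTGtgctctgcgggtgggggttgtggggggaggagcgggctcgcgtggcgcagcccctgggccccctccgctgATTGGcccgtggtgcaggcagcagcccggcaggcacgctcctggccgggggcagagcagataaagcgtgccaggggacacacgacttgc

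In *Irx2* the E-box began 74 bases and the CCAAT box 43 bases before the start. In *Neurog3* the E-box began 165 bases and the CCAAT box 89 bases before it. An E-box was present in 66.2% and a CCAAT box in 33.8% of 32817 RefSeq promoter windows of the same length, so both are common letters in such windows. GC content was 68.4% for *Irx2* and 71.2% for *Neurog3*, against a median of 52.4% over all windows. Other motifs searched on both strands were the TATA box (TATAAA), a homeodomain core (TAATTA), a forkhead motif (TGTTTAC), the GC box (GGGCGG), and the POU octamer (ATGCAAAT or its variant ATGCTAAT). The GC box, present in 32.7% of all windows, matched at 2 places in *Irx2*, and the others matched in neither window.

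The matrices held 43445 barcodes and 514398069 UMIs, with 74083947–98294915 UMIs per library. After removal of barcodes with under 500 genes, over 10% mitochondrial UMIs, or a doublet call, 25526 remained. Endocrine classes were set by the dominant hormone's share of a cell's UMIs and by its excess over the next hormone, with no use of the 5 genes: 596 α cells (48–150 per library), 441 δ cells (49–103), 241 Ppy cells (18–49), and 6267 β cells (791–1250). A further 435 cells held several hormones at similar levels and were kept apart, and 6 endocrine barcodes occurred in more than 1 library. Of the markers that are not hormones, 5 of 6 for α cells were highest in their own class, 5 of 5 for δ cells, 3 of 5 for Ppy cells, and 9 of 9 for β cells. The Ppy class is therefore named for its hormone more than for its markers. Among the δ cell markers, *Lepr* was only at a mean of 0.149 CPM in δ and 0.0801 CPM in β cells. Among the β cell markers, *Pdx1* was nearly level, at 99.6 CPM in β and 95.4 CPM in δ cells. The targeted gene was checked first. In β cells *Ywhaz* stood at 125.3, 165.6, and 159.3 CPM in WT 1 to 3 and at 21.8, 22.0, and 22.5 CPM in KO 1 to 3. Its log2 fold change was −2.77 (SE 0.0779, edgeR's quasi-likelihood test, adjusted p = 1.91e-06). Because the UMIs are 3′ tags, this measures the level of the transcript and not the loss of exon 4. Outside β cells no genotype difference in *Ywhaz* passed adjustment, with log2 fold changes of −0.06 in α cells (SE 0.132), 0.02 in δ cells (SE 0.110), and −0.29 in Ppy cells (SE 0.151), each with an adjusted p of at least 0.997. In Ppy cells the genotypes did not overlap, at 91.0–106.6 CPM in WT and 60.5–87.9 CPM in KO (edgeR unadjusted p = 0.0680). The same held for 10.2% of all genes tested there.

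To ask in which endocrine cells each factor was transcribed, the UMIs of each class were summed within each library and compared with edgeR, with the library as a block and p-values adjusted over 17837 genes. The α and δ cell factors separated cleanly. *Irx1*, *Irx2*, and *Pou3f4* were higher in α cells than in each of the other classes, and *Hhex* and *Neurog3* were higher in δ cells than in each of the other classes. Of the 30 differences between pairs of classes, 25 passed an adjusted p of 0.05. Against β cells, 3 of the 5 genes were higher in α cells, where 19.5% of all genes tested were higher, 3 of 5 were higher in δ cells, against 19.5% of all genes, and 5 of 5 were higher in Ppy cells, against 15.2%. Between δ and α cells, 2 were higher in δ cells (15.2% of all genes) and 3 were lower (15% of all genes). The Ppy class was higher than α cells for 1 gene (7.22% of all genes) and lower for 3 (9.3%), and it was higher than δ cells for 3 (7.29%) and lower for 2 (10%). With libraries left out or cells selected differently, the number of calls ranged from 21 to 27.

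**Figure D1:**
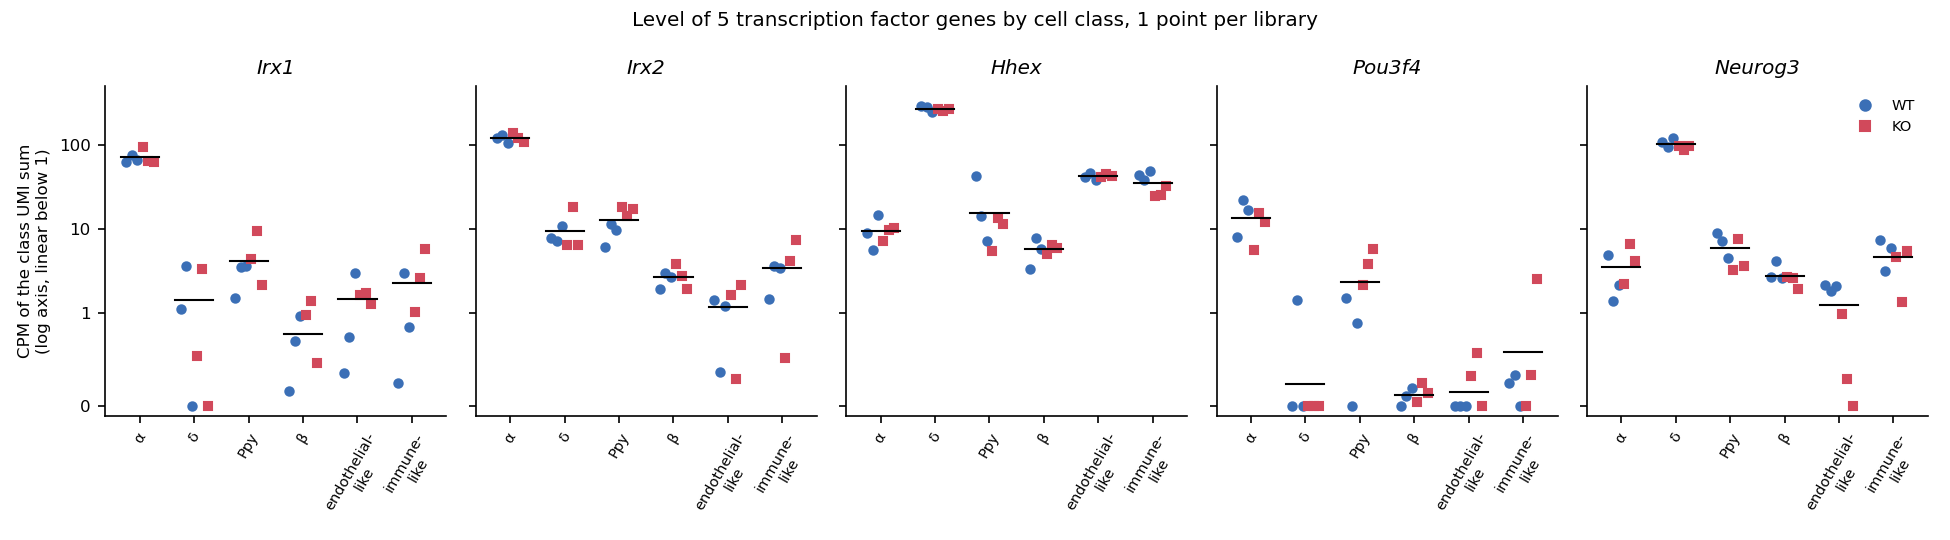
Level of each gene as CPM of the class UMI sum (log axis, linear below 1), with 1 point per library and a line at the mean of the 6, for WT and KO libraries, in the 4 endocrine classes and in endothelial-like and immune-like cells. *Irx1* in α cells lies between 61.9 and 95.0 CPM and *Hhex* in δ cells between 242.4 and 291.7 CPM, with WT and KO points intermingled.

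The α cell genes came first. *Irx1* stood at 62.0, 76.2, and 66.3 CPM in α cells of WT 1 to 3 and at 95.0, 64.0, and 61.9 CPM in KO 1 to 3. Its highest value elsewhere was 9.55 CPM, in Ppy cells of KO 2, so the α cell libraries overlapped with none of the other endocrine sums. In β cells the mean was 0.774 ± 0.426 CPM (SD, n = 6). The α over β log2 fold change was 6.11 (SE 0.156, edgeR adjusted p = 4.93e-54). In Ppy cells *Irx1* was 4.11 ± 2.86 CPM, above β cells by a log2 fold change of 2.38 (SE 0.435, edgeR adjusted p = 2.98e-06) and below α cells by one of −3.73 (SE 0.250, edgeR adjusted p = 4.50e-23). In δ cells only 10 UMIs were counted, none of them in WT 3 or KO 3, where a count of 0 allows up to 2.67 and 2.42 CPM. The levels thus ran from α to Ppy cells and then to δ and β cells, a last pair that could not be separated (log2 fold change 0.11, SE 0.552, edgeR adjusted p = 0.892).

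*Irx2*, the neighbor of *Irx1* on chromosome 13, was highest in α and lowest in β cells. In α cells it stood at 119.2, 131.6, and 104.4 CPM in WT 1 to 3 and at 139.2, 119.9, and 107.9 CPM in KO 1 to 3. In Ppy cells the values were 6.01, 11.5, and 9.82 CPM in WT and 18.4, 14.3, and 17.3 CPM in KO. In δ cells they were 7.79, 7.14, and 10.7 CPM in WT and 6.46, 18.2, and 6.46 CPM in KO. The α cell libraries were thus far above the rest, and the Ppy and δ cell libraries overlapped. β cells held 2.70 ± 0.720 CPM, below every Ppy and δ cell library. The α over β log2 fold change was 5.04 (SE 0.0977, edgeR adjusted p = 2.95e-63), and those of Ppy and δ cells over β cells were 2.25 (SE 0.217, adjusted p = 1.69e-15) and 0.99 (SE 0.218, adjusted p = 8.55e-05). The step from δ to Ppy cells was 1.27 (SE 0.253, edgeR adjusted p = 4.85e-05). In CPM, without edgeR's scaling, the ratio of means was 1.36 and Ppy cells were higher in 3 of 6 libraries. With a stricter limit on a second hormone, which left 148 δ and 180 Ppy cells, the edgeR step was 0.68 and no longer passed (adjusted p = 0.179).

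*Pou3f4* was the sparsest of the genes, with 189 UMIs in all endocrine cells and 146 of them in α cells. In α cells it stood at 8.05, 22.2, and 16.9 CPM in WT 1 to 3 and at 5.59, 15.6, and 12.1 CPM in KO 1 to 3. The α cell libraries of WT 1 and KO 1 were the lowest, and KO 1 came within the range of the Ppy cells, whose highest library, KO 3, held 5.75 CPM. The α over β log2 fold change was 6.18 (SE 0.361, edgeR adjusted p = 7.07e-28), from 146 UMIs in α cells against 25 in over 10 times as many β cells. The ratio of pooled CPM, which lacks edgeR's scaling between sums (TMM), was larger than the fitted value, at 113-fold (95% counting interval 73.3 to 180). In Ppy cells 16 UMIs were counted, more than in β cells (log2 fold change 4.13, SE 0.626, edgeR adjusted p = 3.25e-08) and fewer than in α cells (−2.05, SE 0.432, adjusted p = 0.000160). δ cells held 2 UMIs, both from WT 2, and a count of 0 in the other 5 libraries allows between 1.62 and 4.96 CPM. Whether δ and β cells differed in *Pou3f4* was not detectable at this depth (edgeR, adjusted p = 0.754). The higher level in Ppy than in δ cells (log2 fold change 3.61, SE 0.918, edgeR adjusted p = 0.00180) did not pass without KO 3 (2.71, adjusted p = 0.0750).

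Of the δ cell genes, *Hhex* varied little across libraries. In δ cells it stood at 291.7, 280.0, and 242.4 CPM in WT 1 to 3 and at 269.7, 249.7, and 267.3 CPM in KO 1 to 3. Every one of these values was more than 5 times the highest in any other endocrine class. That value, 42.0 CPM, came from the 18 Ppy cells of WT 1, while the other 5 Ppy libraries lay between 5.40 and 14.2 CPM. The δ over β log2 fold change was 4.94 (SE 0.0970, edgeR adjusted p = 1.14e-62), and the δ over α one was 4.61 (SE 0.141, adjusted p = 3.34e-47). Below δ cells the order was Ppy, α, and β cells, at 15.6 ± 13.4, 9.35 ± 3.11, and 5.71 ± 1.50 CPM. Ppy cells were above β cells by a log2 fold change of 1.23 (SE 0.226, edgeR adjusted p = 3.45e-06), and α and β cells did not differ past the threshold (0.33, SE 0.195, adjusted p = 0.174). The step from α to Ppy cells (0.90, SE 0.266, edgeR adjusted p = 0.00940) did not pass without WT 1 (0.51, adjusted p = 0.150). With the stricter limit on a second hormone, neither the step from α to Ppy cells (1.34, adjusted p = 0.0591) nor that from β to Ppy cells (0.44, adjusted p = 0.341) passed.

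*Neurog3*, best known from the embryo, was present in adult δ cells. It stood at 107.4, 94.3, and 121.2 CPM in WT 1 to 3 and at 97.4, 87.6, and 97.7 CPM in KO 1 to 3. The highest value in another endocrine class was 9.01 CPM, in Ppy cells of WT 1, so the δ cell libraries stood clear of the rest. The δ over β log2 fold change was 4.56 (SE 0.114, edgeR adjusted p = 1.19e-54), and the δ over α one was 4.57 (SE 0.182, adjusted p = 8.19e-39). In Ppy, α, and β cells *Neurog3* was 5.84 ± 2.39, 3.56 ± 1.97, and 2.78 ± 0.728 CPM. α and β cells could not be separated (log2 fold change −0.0035, SE 0.260, edgeR adjusted p = 0.995). Ppy cells were above β cells (0.96, SE 0.298, edgeR adjusted p = 0.00640) but not past the threshold against α cells (0.97, SE 0.364, adjusted p = 0.0555). With the stricter limit on a second hormone the Ppy against β difference changed sign and did not pass (−0.55, adjusted p = 0.518).

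**Figure D2:**
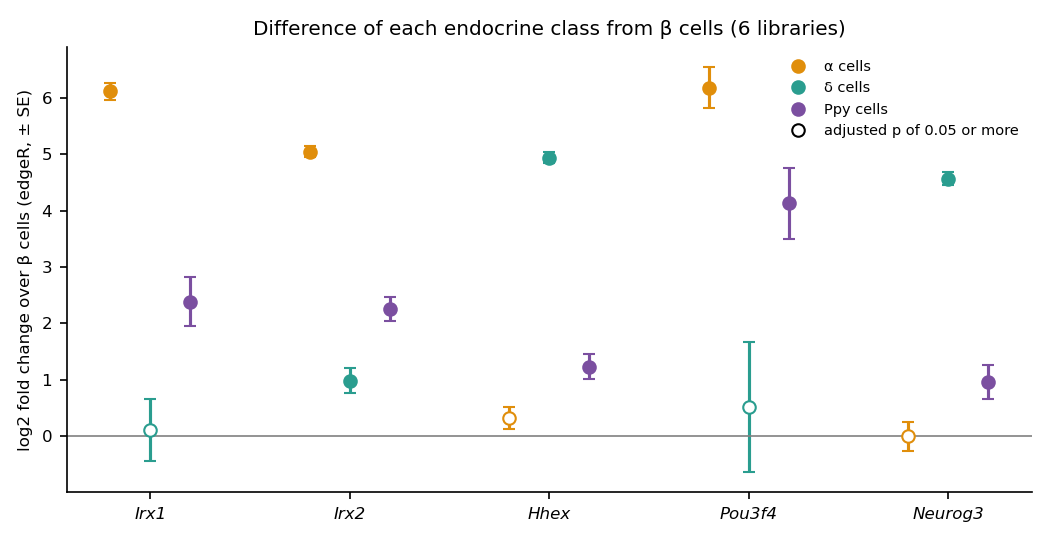
log2 fold change of each gene in α, δ, and Ppy cells over β cells, fitted with edgeR over 6 libraries, with bars for the SE and open symbols for an adjusted p of 0.05 or more. The α cell points of *Irx1*, *Irx2*, and *Pou3f4* lie at 6.11, 5.04, and 6.18, and the δ cell points of *Hhex* and *Neurog3* at 4.94 and 4.56.

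Markers of other cell types were counted in the same sums. The 5 acinar markers, none of them at 0, summed to 121.2–239.8 CPM in δ cells and to 2.08–70.5 CPM in α cells, and 1 gene carried most of that gap. *Cela1* was at 152.4 CPM in δ and 6.22 CPM in α cells, while *Cpa1* was at 3.31 and 2.28, *Prss2* at 5.52 and 6.08, *Ctrb1* at 10.1 and 9.02, and *Pnlip* at 4.95 and 3.61 CPM. The 16 immune markers summed to 66.2–97.2 CPM in δ cells, to 26.8–54.0 CPM in α cells, and to 5713–13191 CPM in immune-like cells. Here too 1 gene stood out, *C1qa* at 67.6 CPM in δ and 23.9 CPM in α cells, while *C1qb* was at 0.834 and 0.893 and *Tyrobp* at 0.953 and 0.919 CPM. *Fcer1g* was at 5.38 and 2.01 CPM. The 10 endothelial markers summed to 17.8–28.5 CPM in δ cells and to 12704–16436 CPM in endothelial-like cells. These lists were also used to select the cells. An endocrine cell had at most 3 detected markers of a list, and an immune-like or endothelial-like cell at least 4 of its own. The gap between endocrine and other cells therefore follows from the construction. *Hhex* was itself at 35.6 CPM in immune-like and 42.4 CPM in endothelial-like cells, well under its δ cell level, and *Neurog3* was at 4.66 and 1.23 CPM there.

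The shares of cells with at least 1 UMI were likewise highest in α cells for *Irx1*, *Irx2*, and *Pou3f4* among the endocrine classes and in δ cells for *Hhex* and *Neurog3*. In α cells, 61.4% ± 4.72 (SD, n = 6 libraries) had an *Irx1* UMI, 83.0% ± 6.63 an *Irx2* UMI, and 18.4% ± 7.26 a *Pou3f4* UMI. In δ cells, 88.6% ± 4.75 had an *Hhex* UMI and 68.4% ± 10.2 a *Neurog3* UMI. These shares depend on depth, which had medians of 12410.5–25021 UMIs per cell in α libraries, 11525–20759.5 in δ, 19480–39290.5 in Ppy, and 21220.5–43777 in β libraries. Thinning every cell to 5000 UMIs lowered the α cell shares to 31.7%, 43.0%, and 5.13% and the δ cell shares to 65.8% and 36.0%. The shares still lay far above those of thinned β cells, which were 0.286% for *Irx1*, 1.32% for *Irx2*, 0.0547% for *Pou3f4*, 1.90% for *Hhex*, and 1.01% for *Neurog3*. In exact paired permutation tests over the 6 libraries, 19 of 30 differences between classes had an adjusted p of 0.0493, from the smallest p that 6 libraries allow. After thinning none of the 30 passed in the same exact test. Of these, 12 were still at the smallest p that 6 libraries allow, with all 6 libraries in 1 direction. Their adjusted p of 0.0781 was set by that smallest p. None of the 12 was for *Pou3f4*, whose thinned share was higher in α than in β cells in 5 of 6 libraries (exact permutation test p = 0.0625). In Ppy cells the thinned *Irx1* share was 0.695%, above that of β cells in 2 of 6 libraries. The thinned *Irx2* share was 3.98% in Ppy and 4.27% in δ cells.

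**Figure D3:**
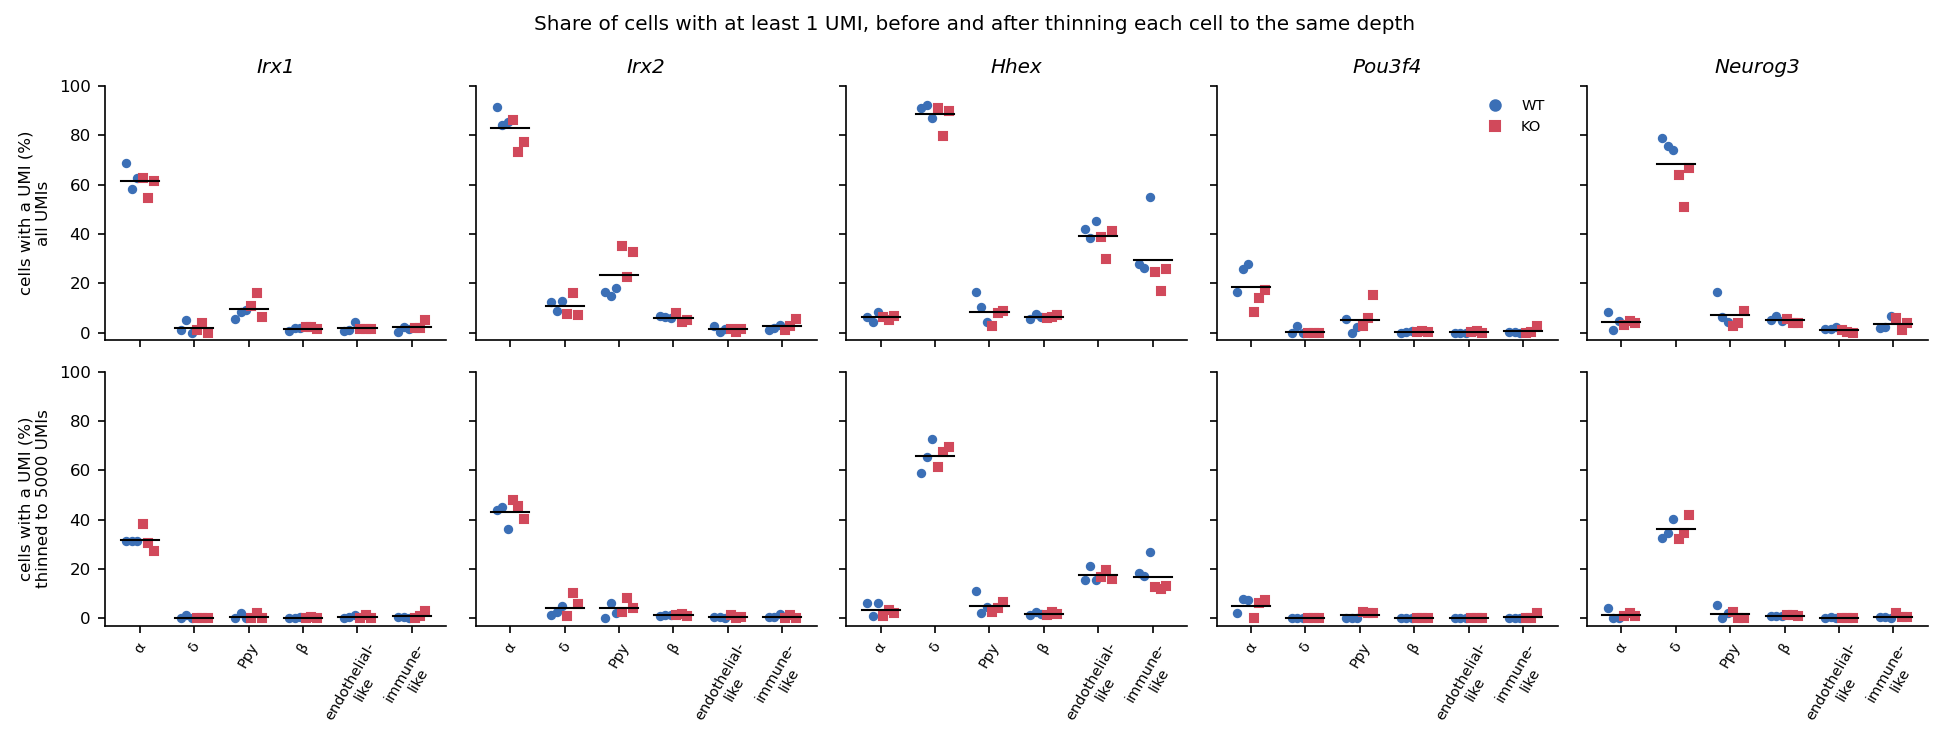
Share of cells with at least 1 UMI of each gene by class, 1 point per library and a line at the mean of the 6, with all UMIs (top) and with every cell thinned to 5000 UMIs (bottom). *Hhex* in δ cells has a mean of 88.6% with all UMIs and 65.8% after thinning, and *Irx2* in α cells 83.0% and 43.0%.

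Free RNA in a droplet experiment gives UMIs in cells that do not express a gene, so the low shares were read against cells of other lineages. In endothelial-like cells (median 8106–16868 UMIs) 1.80% had an *Irx1* UMI, 1.35% an *Irx2* UMI, 0.181% a *Pou3f4* UMI, and 1.07% a *Neurog3* UMI. In immune-like cells (median 6938–15083.5 UMIs) the shares were 2.20%, 2.65%, 0.650%, and 3.64%. The β cell share for *Irx1*, 1.74%, was not above either. The β cell shares of 6.16% for *Irx2* and 5.03% for *Neurog3* were above both, in deeper cells. After thinning, *Irx2* was at 1.32% in β, 0.626% in endothelial-like, and 0.655% in immune-like cells, and *Neurog3* at 1.01%, 0.0825%, and 0.704%. For *Hhex* these cells are no measure of background, since 39.4% of endothelial-like and 29.4% of immune-like cells had an *Hhex* UMI.

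The ratio of each factor to the hormone of its class gave a second reading. *Irx1* stood at 0.323 ± 0.0498 UMIs per 1000 *Gcg* UMIs in α cells, 0.444 ± 0.0724 in β, 0.699 ± 0.686 in δ, and 1.05 ± 0.970 in Ppy cells. *Pou3f4* stood at 0.0622 ± 0.0296 in α, 0.0637 ± 0.0433 in β, 0.0976 ± 0.239 in δ, and 0.502 ± 0.314 in Ppy cells. *Irx2* stood at 0.550 ± 0.0492 in α, 2.15 ± 1.50 in β, 5.34 ± 3.05 in δ, and 3.52 ± 2.86 in Ppy cells. The ratios of *Irx1* and *Irx2* were thus lowest in α cells, where *Gcg* is highest, with *Irx1* in β cells near it, while those of *Pou3f4* in α and β cells differed by less than their SD. Per 1000 *Sst* UMIs, *Hhex* stood at 2.25 ± 0.177 in δ, 3.06 ± 0.208 in β, 3.94 ± 1.10 in α, and 4.11 ± 1.69 in Ppy cells. For *Neurog3* the values were 0.853 ± 0.133 in δ, 1.56 ± 0.485 in β, 1.44 ± 0.729 in α, and 1.87 ± 1.09 in Ppy cells, again lowest in the class where the hormone is highest. *Hhex* in endothelial-like cells ranged from 12.9 to 320.6 UMIs per 1000 *Sst* UMIs, above the highest δ cell library, at 2.49.

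Although β cells were by far the most numerous, the rare classes held most of the UMIs. α cells were 7.90% of the endocrine cells and held 79.9% of *Irx1*, 64.4% of *Irx2*, and 77.2% of *Pou3f4* UMIs. δ cells were 5.84% of the endocrine cells and held 61.4% of *Hhex* and 55.9% of *Neurog3* UMIs. β cells, at 83.1%, held 33.2% of *Hhex* and 39.0% of *Neurog3* UMIs.

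Within a class the counts per cell were low and spread. An α cell held a mean of 1.29 *Irx1* UMIs (median 1, highest 12), with 39.8% of cells at 0. For *Irx2* the mean was 2.19 and the median 2, while *Pou3f4* had a mean of 0.245 and 82.2% of α cells at 0. A δ cell held a mean of 4.92 *Hhex* UMIs (median 4, highest 26), with 10.7% at 0 and 68.5% at 3 or more, and a mean of 1.85 *Neurog3* UMIs (median 1, highest 14). Of the 596 α cells, 88.6% had a UMI of *Irx1* or *Irx2* and 52.7% of both. Of the 441 δ cells, 95.2% had a UMI of *Hhex* or *Neurog3* and 63.3% of both. *Hhex* and *Neurog3* were detected together in 279 δ cells, where the product of their shares gives 273.5, a ratio of 1.02. With every cell thinned to 5000 UMIs the ratio was 0.943.

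The genes of each class also varied alike over the 24 sums of class and library. Pearson correlations of log2(CPM + 1) are given as a description: the 24 points share 6 libraries and fall into 4 classes, so they mostly restate the class order. *Irx1* and *Irx2* correlated at r = 0.95, *Irx1* and *Pou3f4* at 0.90, *Irx2* and *Pou3f4* at 0.89, and *Hhex* and *Neurog3* at 0.97. Among 10086 genes, the 5 most like *Irx1* were *Pcsk1n* (0.97), *Higd1a* (0.96), *Gcg* (0.96), *Mat1a* (0.95), and *Irx2* (0.95). *Irx2* was most like *Nxph1* (0.96), *Wnk3* (0.95), *Irx1* (0.95), *Grb10* (0.95), and *C8b* (0.95), and *Pou3f4* most like *Tspan7* (0.93), *Pdk4* (0.92), *Mamld1* (0.92), *Ptprd* (0.91), and *Higd1a* (0.91). *Hhex* and *Neurog3* had the same 4 genes beside each other: *Sst* (0.99 and 0.98), *Ptprz1* (0.98 and 0.97), *Gap43* (0.98 and 0.97), and *Bmp3* (0.98 and 0.97). *Gcg* and *Sst* set the classes, so their place in these lists follows from the construction.

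Other islet transcription factors placed the 5 genes in context. Of 25 on the list, 24 could be tested, and between α and β cells 7 were higher in α cells and 11 lower, with a median log2 fold change of −0.14 against −0.06 over all genes. Between δ and β cells 9 were higher and 11 lower (median −0.17 against −0.08 over all genes), and between Ppy and β cells 7 were higher and 14 lower (median −0.43 against −0.15). Over all genes tested, 19.5% were higher in α, 19.5% in δ, and 15.2% in Ppy cells than in β cells. The shares of all genes that were lower are not given here, so the counts of lower factors are not read as unusual.

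Of 10 close relatives of the 5 genes (*Irx3* to *Irx6*, *Pou3f1* to *Pou3f3*, *Neurog1*, *Neurog2*, and *Hlx*), 2 had enough UMIs to be tested. *Pou3f1* was higher in δ than in β cells, at 9.93 against 0.474 CPM (log2 fold change 3.70, SE 0.320, edgeR adjusted p = 7.04e-18), and was at most 1.35 CPM in α and Ppy cells. *Pou3f4* and its relative *Pou3f1* therefore stood highest in different classes, the first in α and the second in δ cells. *Hlx* passed in no pair of classes. *Neurog1* and *Neurog2* together had 1 UMI in the endocrine classes, and *Irx3* to *Irx6* had 11.

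The comparison of genotypes asked whether loss of 14-3-3ζ in β cells went with a change of these factors in any endocrine class. Of the 20 pairs of gene and class, 19 had enough UMIs to be tested, and 0 passed an adjusted p of 0.05 with an absolute log2 fold change over 0.1 (edgeR). DESeq2 likewise gave 0. At an unadjusted p under 0.05 there were 2 with edgeR, both in Ppy cells, and 0 with DESeq2. Over all genes, 0.0155% passed in α, 0% in δ, 0.00849% in Ppy, and 0.00575% in β cells. In α cells the log2 fold changes of KO over WT were 0.10 for *Irx1* (SE 0.169), 0.05 for *Irx2* (SE 0.137), and −0.50 for *Pou3f4* (SE 0.323). In δ cells they were −0.02 for *Hhex* (SE 0.103) and −0.14 for *Neurog3* (SE 0.130). The genotypes overlapped for each of these 5, where 9.74% of all genes in α and 8.94% in δ cells had no overlap, and edgeR's adjusted p was 1.00 throughout. The replicate numbers were taken as pairs from a likeness in these data, not from the labels. By that pairing, *Pou3f4* in α cells was lower in KO in 3 of 3 pairs. The share of all genes with 3 pairs in 1 direction is not given here, so this count is not read as unusual. With the number as a block, the log2 fold change of *Pou3f4* was −0.49 (SE 0.243, edgeR unadjusted p = 0.0546, adjusted p = 0.878). The SE shows what could have been seen: *Hhex* in δ cells was measured more closely than *Pou3f4* in α cells.

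In Ppy cells, the genotypes did not overlap for *Irx2* and *Pou3f4*, as was the case for 10.2% of all genes tested there. *Irx2* was at 6.01–11.5 CPM in WT and 14.3–18.4 CPM in KO, a log2 fold change of 0.84 (SE 0.325, edgeR unadjusted p = 0.0150, adjusted p = 0.997). *Pou3f4* had 2 UMIs in WT and 14 in KO, a log2 fold change of 2.43 (SE 0.903, edgeR unadjusted p = 0.0117, adjusted p = 0.997). Among all genes, 4.63% had an unadjusted p under 0.05 in Ppy cells, 4.22% in α, 3.82% in δ, and 4.43% in β cells, and neither gene passed adjustment. In β cells the changes were 0.64 for *Irx1* (SE 0.577), 0.17 for *Irx2* (SE 0.255), 0.04 for *Hhex* (SE 0.231), 0.47 for *Pou3f4* (SE 0.955), and −0.39 for *Neurog3* (SE 0.222), with adjusted p of 0.939–0.985 in edgeR. Whether a genotype difference in α, δ, or Ppy cells departed from that in β cells was tested with an interaction term, and 0 of 15 passed (edgeR, adjusted p of 1 in each), with 3 at an unadjusted p under 0.05. Over all genes, 0.185% passed adjustment for α, 0.028% for δ, and 0.0617% for Ppy cells. The share of all genes at an unadjusted p under 0.05 is not given for this term, so the 3 are not read as unusual.

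**Figure D4:**
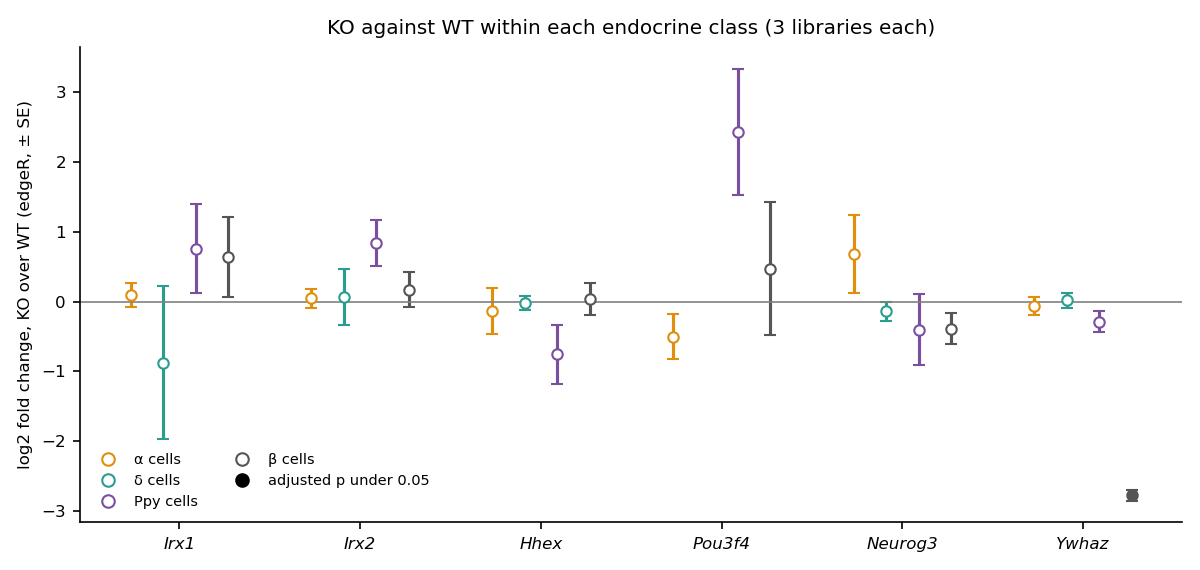
log2 fold change of KO over WT for each gene within each endocrine class (edgeR, 3 libraries per genotype, bars show the SE), with *Ywhaz* beside them, where a filled symbol has an adjusted p under 0.05. *Ywhaz* in β cells lies at −2.77, and none of the 5 genes has a filled symbol.

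The shares of cells with a UMI did not separate the genotypes past adjustment either. The share of δ cells with a *Neurog3* UMI was 76.2% ± 2.33 in the WT and 60.6% ± 8.39 in the KO group (SD, n = 3 libraries each, exact permutation test p = 0.1, the smallest this design allows, adjusted p = 0.909). After thinning, the shares were 35.8% in WT and 36.3% in KO libraries. The median depth of δ cells was 11525–16416 UMIs in KO and 16167–20759.5 UMIs in WT libraries. The part of depth in the gap of the unthinned shares was not tested.

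β cells were last divided by whether a *Ywhaz* UMI was present in the cell because some KO β cells still held one. Such a UMI was found in 88.5–93.5% of WT and 33.4–46.5% of KO β cells. In KO β cells, *Hhex* stood at 8.66, 13.2, and 10.4 CPM in cells with a *Ywhaz* UMI and at 1.14, 2.02, and 1.16 CPM in cells without one, a ratio of means of 7.47. *Neurog3* followed, at 4.31 against 0.807 CPM. Both were higher in the cells with a *Ywhaz* UMI in 3 of 3 KO libraries. Of the α cell genes, *Irx1* stood at 1.30 against 0.663 CPM and *Pou3f4* at 0.216 against 0.0931 CPM, each higher in 3 of 3 KO libraries, and *Irx2* at 3.34 against 2.47 CPM, higher in 2 of 3.

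The same division in WT β cells, where no *Ywhaz* was deleted, gave 5.86 against 1.25 CPM for *Hhex*, 3.28 against 0.970 CPM for *Neurog3*, and 2.63 against 0.851 CPM for *Irx2*, each higher with the UMI in 3 of 3 libraries. In KO β cells, *Sst* was 3612 CPM with and 491.1 CPM without a *Ywhaz* UMI, and the δ cell marker *Rbp4* was 233.3 against 48.5 CPM. *Ppy* was 2860 against 814.1 CPM and *Gcg* was 2926 against 1659 CPM. The immune marker *Ptprc* was 0.920 against 0.871 CPM, higher with the UMI in 2 of 3 libraries. The immune marker *Cd52* was 1.84 against 2.27 CPM. Of the endothelial markers, *Pecam1* was 1.06 against 1.25 CPM and *Plvap* 0.447 against 0.736 CPM. *Cd52*, *Pecam1*, and *Plvap* were each higher with the UMI in 0 of 3 libraries. Hormone transcripts of the other endocrine classes were thus more frequent in the KO β cells with a *Ywhaz* UMI, *Sst* by the widest ratio of the 3. In WT β cells *Sst* was 1842 against 286 CPM and *Rbp4* 126 against 26.0 CPM, each higher with the UMI in 3 of 3 libraries. The other hormones were less uniform in WT. *Gcg* was 1347 against 1085 CPM, higher in 1 of 3, and *Ppy* 1524 against 2976 CPM, higher in 2 of 3. *Ywhaz* itself was at 193.7–230.0 CPM in δ cells. Cells with the UMI were also deeper, with medians of 24189–37320 UMIs in KO libraries against 19701.5–30281.5; the part of depth and of transcripts from other cells was not tested. The KO β cells that held a *Ywhaz* UMI were then left out while all WT β cells were kept, so unlike sets were compared. The KO over WT log2 fold change of *Hhex* in β cells went from 0.04 to −1.93 (edgeR, unadjusted p = 0.000137, adjusted p = 0.385). That of *Neurog3* went from −0.39 to −1.91 (edgeR, adjusted p = 0.283). The size of both fold changes, and the sign for *Hhex*, therefore rested on which KO β cells were kept. Among cells without the UMI in both genotypes, *Hhex* was at 1.44 CPM in KO and 1.25 CPM in WT. *Neurog3* was at 0.807 CPM in KO and 0.970 CPM in WT there. The WT values rest on 6, 2, and 0 *Hhex* and 3, 2, and 0 *Neurog3* UMIs in WT 1 to 3, and were not tested.

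**Figure D5:**
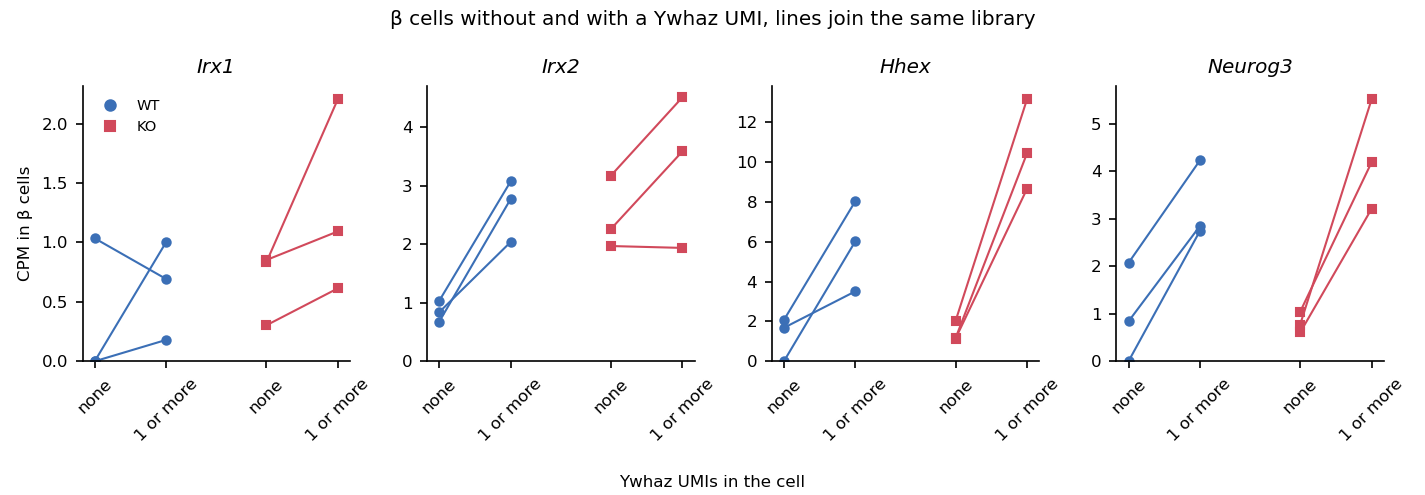
CPM in β cells without and with a *Ywhaz* UMI, 1 line per library, for WT and KO. In the KO libraries *Hhex* has a mean of 1.44 CPM without and 10.7 CPM with the UMI, and *Irx2* 2.47 and 3.34 CPM.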

How the data were processed

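The deposited files held UMI counts per gene and barcode for 6 islet libraries. Per the labels, the authors used Cell Ranger 6.0.2, Seurat, and mm10, from the submitters' processing notes; the counts were not normalized, and each library's total was 74083947–98294915 UMIs. From these counts, barcodes with at least 500 genes and at most 10% mitochondrial UMIs were kept, and the highest Scrublet scores (scanpy 1.11.5), 0.8% per 1000 barcodes, were removed as doublets. An endocrine cell had at least 5000 UMIs and at most 3 detected markers of each of the endothelial, immune, mesenchymal, and acinar lists. Ductal markers were not used. Its dominant hormone made up at least 5% (*Gcg*), 3% (*Sst*), 5% (*Ppy*), or 20% (insulin) of its UMIs. That hormone was at least 3 times the next (2 times for *Sst*). The stricter limit was 10 times (5 times for *Sst*). Immune-like and endothelial-like cells had at least 4 markers of their list and at least 2 times those of any other of these lists.

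UMIs were summed per library and class and tested with edgeR 4.0.16 (quasi-likelihood, TMM, genes with at least 10 UMIs, Benjamini-Hochberg over all genes), with the library as a block between classes and in the interaction, and no block between genotypes. The median log2 fold change over all genes was −0.06, −0.08, and −0.15 for α, δ, and Ppy cells against β cells. Levels are CPM of all UMIs of a class, without the TMM factors that edgeR used. Those were 1.06–1.14 in α, 1.25–1.30 in δ, 0.828–0.916 in Ppy, and 0.720–0.865 in β sums. Fold changes from edgeR and ratios of CPM can therefore differ. Alternatives were DESeq2 1.42.0 and its size factors, other filters, doublet, purity, and mitochondrial limits, each library left out, KO β cells with a *Ywhaz* UMI left out, a replicate block and, added after seeing the data, hormone UMIs left out of totals. The fits were tested on simulated data. Same-numbered WT and KO libraries deviated together in β cells (r = 0.54, 0.50, and 0.34) and α cells (0.23, 0.18, and 0.11), where every r was over 0.1 and the numbers were taken as pairs. In δ cells (0.15, 0.089, and 0.037) and Ppy cells (0.050, 0.090, and −0.011) not every r was over 0.1.

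Named genes were the 5 members, *Ywhaz*, the hormones, those with the 3 largest class differences in lists of 25 islet factors and 10 relatives (for the islet factors these are not reported here), and for each member the 5 genes with the highest correlation among those with a mean of at least 5 CPM. *Fam241b*, *Rbp4*, *Lepr*, *Pdx1*, and the acinar, immune, and endothelial markers were named after their values were seen. Members and lists were chosen with earlier results of these data known. Intervals and limits for counts of 0 (3 counts) cover counting error only. Between genotypes, p-values measure the spread between these libraries. Between classes and in the interaction, where the library was a block or a pair, they measure the spread of class differences over the libraries.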

Additional observations from a re-analysis of the deposited data

Results flagged for a closer look

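*Hhex* was measured in cells outside the endocrine comparisons. It stood at 42.4 ± 2.90 CPM (SD, n = 6) in endothelial-like cells, 38.1–46.1 CPM over the libraries, and at 35.6 ± 10.0 CPM in immune-like cells, 24.6–49.4 CPM, above the 5.71 CPM of β cells. In immune-like cells *Hhex* was 37.9–49.4 CPM in WT and 24.6–32.2 CPM in KO libraries. This difference was not tested, and the share of all genes without overlap in these cells is not given here. The class held 60–1850 cells per library and its make-up varied. Over the libraries *Cd79a* ran from 28.2 to 663 CPM and *Lyz2* from 569 to 5358 CPM. The 435 cells that held several hormones at similar levels, and entered no comparison, had 95.0 CPM of *Hhex*, 34.3 of *Neurog3*, 37.6 of *Irx2*, and 20.2 of *Irx1*, each between the highest class and β cells.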

How the results depend on the processing

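Between classes 25 differences passed, against 21 with the stricter limit on a second hormone, 27 without that limit, and 24–26 with single libraries left out. Between genotypes 0 passed under every alternative, the replicate block included, and 0 interactions passed. For shares of cells, 19 calls became 0 after thinning, although 12 differences stayed at the smallest p the design allows, with shares of 65.8% against 1.90% for *Hhex* in δ and β cells. None of the 12 was for *Pou3f4*. The value of *Neurog3* in α against β cells changed sign with edgeR's own filter (0.056), without a hormone limit (1.23), with up to 20% mitochondrial UMIs (0.010), and ran from −0.26 to 0.25 with libraries left out. That of *Irx1* in δ against β cells was −0.10 without doublet calls, 1.43 (called) without the hormone limit, −4.81 with the stricter one, and −0.61 to 0.47 with libraries left out, and that of *Pou3f4* was −2.41 with the stricter limit, −0.19 with up to 20% mitochondrial UMIs, and −3.29 to 0.90. The stricter limit also gave −0.90 for *Hhex* in α against β cells, −0.55 for *Neurog3* in Ppy against β cells, and −0.016 for *Irx2* between genotypes in α cells. *Hhex* in α against β cells was called without the hormone limit (1.64) and without WT 2 (0.51, adjusted p = 0.0345), and *Neurog3* in Ppy against α cells with DESeq2 (0.99), no filter, up to 20% mitochondrial UMIs, hormone UMIs left out, or without KO 3. Without KO β cells holding a *Ywhaz* UMI, but with all WT β cells kept, *Hhex* between genotypes in β cells was −1.93, *Neurog3* −1.91, and *Pou3f4* −0.15. With libraries left out, genotype values changed sign for *Irx1* (−0.15 to 0.24) and *Irx2* (−0.084 to 0.15) in α cells, *Hhex* in δ cells (−0.082 to 0.026), and *Hhex* (−0.17 to 0.30), *Irx2* (−0.10 to 0.42), and *Pou3f4* (−0.13 to 1.42) in β cells; none of these passed. The causes were not tested. Depth limits *Pou3f4* most, with 2 UMIs in δ cells.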
